A study of Homo sapiens and Mus musculus with 29 samples.

Results

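The KPC libraries make up 8 of the 29 samples of the series, with 4 libraries labelled KPC liver mets and 4 labelled KPC tumour. KPC is an autochthonous mouse model in which engineered alleles in the pancreas give rise to pancreatic ductal adenocarcinoma (PDAC) in the animal itself. One cell line was derived from a primary tumor and the other from a matched liver metastasis (mets), and both were grown under the same serum-containing culture conditions. All 8 libraries carry the genotype and treatment label WT, so that no gene was deleted or overexpressed and no agent was added in either line. Polyadenylated RNA was sequenced, and the deposited values are read numbers scaled to gene length and library size (RPKM). The labels number the libraries of each line 1 to 4 (T1 to T4 for tumor, M1 to M4 for mets). They name no animal, culture or day, so each line stands for 1 derivation. The p-values of comparisons within and between the pairs rest on the spread between the 2 libraries of a line in a pair. Only the comparison of 4 libraries against 4 uses the spread between all libraries of a line. Either spread may be technical. The comparison asked which genes separate a metastasis line from its matched tumor line. Replicates 1 and 2 and replicates 3 and 4 were taken as separate pairs because an earlier analysis of these same libraries found the difference between the lines to run in opposite directions in them. The counts below therefore describe that split and are not independent evidence for it.

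PDAC cells are commonly placed between a classical state, which keeps the expression of gastrointestinal identity factors such as GATA6 and HNF4A together with mucins and trefoil peptides, and basal-like or mesenchymal states, in which squamous keratins or matrix and motility genes are expressed instead. Cells also exchange Wnt, TGF-beta, BMP and chemokine signals with their neighbors in the liver and the pancreas, and cultured lines retain many of these programs. Foxa1, which encodes a pioneer factor that opens chromatin at endodermal enhancers, was the gene of main interest in the study's metastasis lines.

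The 8 libraries held between 30.1 and 44.4 M reads, recovered from the size of the smallest RPKM step, and 12278 to 12958 genes reached 1 RPKM. Mitochondrially encoded genes held 10.9% of the summed RPKM in M4 and 6.32% to 8.06% in the other libraries. The 10 highest genes held 21.9% in M3 and 10.4% to 15% in the others. How these shares affected the RPKM of other genes was not tested. In each library more genes held exactly 2 reads (2113 to 2294) than exactly 1 (1107 to 1237), so the number of independent fragments may be below these totals. Tests were run on log2(RPKM + 1) for the 12585 genes that averaged 1 RPKM or more, so fold changes of low genes are understated. Of 13 ductal markers 12 had a mean of at least 1 RPKM, and their summed level was 4720 to 7090 RPKM per library. None of the 14 acinar and 12 endothelial markers reached that mean, and 2 of 16 fibroblast and 1 of 16 leukocyte markers did. Among 20 hepatocyte markers 2 did (Apob and Ttr), 8 were at 0 in every library, and Alb, which encodes the albumin that defines hepatocytes, was at 0 throughout.

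Before any test, the libraries did not sort by line. The standard deviation of the log2 difference between a pair of libraries, taken over the genes tested, was 0.259 for T1 and T2 and 0.26 for M1 and M2. Yet the library nearest to T4 was M2, at 0.275, and the library nearest to M4 was T2, at 0.315. The 8 distances between libraries of different lines and different replicate pairs ranged from 0.275 to 0.488. Those between libraries of the same line in different pairs ranged from 0.488 to 0.659, with a median of 0.546. T3 was nearest to T4, at 0.44, and next to M2, at 0.445, while M3 was nearest to M4, at 0.391, and next to T2, at 0.434. T3, T4, M3 and M4 each lay closer to replicates 1 and 2 of the other line than to those of their own line. Trp53, 1 of the genes that define the model, was between 45.8 and 63.6 RPKM across the 8 libraries and did not pass the test in any comparison without the replicate block. Whether the labels of a pair were exchanged was not tested.

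**Figure D1:**
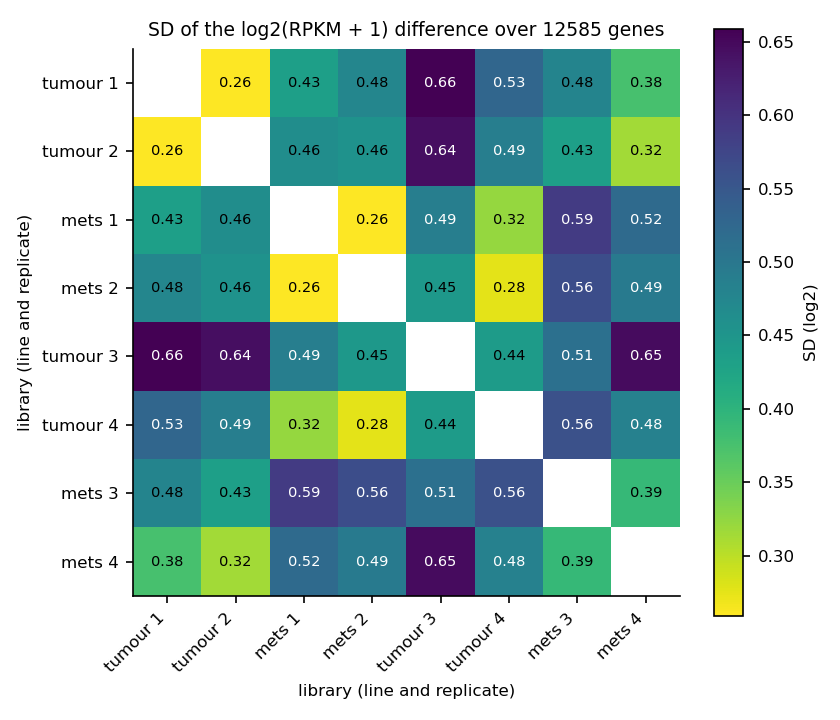
Heat map of the standard deviation of the log2(RPKM + 1) difference between each pair of the 8 libraries over 12585 genes, with darker and lighter cells read from the color bar and the value written in each cell. The blocks that join T1 and T2 with M3 and M4, and M1 and M2 with T3 and T4, hold values of 0.275 to 0.488, below or equal to the lowest value between libraries of the same line in different pairs.

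With all 4 libraries per line in 1 comparison, no gene passed the test in limma (0 of 12585, 0%; smallest adjusted p 1), with 109 genes at an unadjusted p under 0.05. A limma-voom fit on recovered whole reads likewise called 0 of 11976 genes, with 62 at an unadjusted p under 0.05. The named genes with the smallest unadjusted p stayed within narrow ranges. Npb, which encodes the neuropeptide B precursor, was at 0.995, 1.08, 1.7 and 1.27 RPKM in T1 to T4 and at 2.25, 2.1, 2.02 and 2.39 RPKM in M1 to M4. The mets libraries lay above the tumor libraries for Npb without overlap, as its choice by the smallest p favors. Ms4a8a was likewise higher in every mets library (1.52 to 2.24 RPKM) than in every tumor library (0.93 to 1.4 RPKM), and Wipf1, an actin regulator, was lower (4.57 to 5.47 RPKM against 5.82 to 8.2 RPKM), whereas Marcksl1 overlapped between the lines.

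Within the pairs the same comparison did call genes. In replicates 1 and 2, 399 genes were higher in mets (3.17% of all genes tested) and 345 lower (2.74%), 744 in all (5.91%), a balance that turned to 322 higher and 418 lower when the libraries were shifted to the same median. In replicates 3 and 4, 624 were higher (4.96%) and 645 lower (5.13%), 1269 in all (10.1%). Of the 636 genes called in both pairs (5.05%), 635 had opposite directions. The 1 exception (0.00795%), Gm9234, is a processed pseudogene and was singled out after its values were seen. It was at 3.07 to 3.86 RPKM in the tumor libraries and at 1.35 to 2.05 RPKM in the mets libraries, with log2 differences of −0.69 and −0.82 (adjusted p = 0.0353 and 0.0149). With the replicate number as a block, 3383 genes were called in replicates 1 and 2 and 4349 in replicates 3 and 4, and 2599 of the 2623 called in both (20.8%) were opposite. Each of the libraries of replicates 1 and 2 weighed heavily on the count in their own pair, which fell to 114 without T1, 87 without T2, 114 without M1 and 84 without M2, where the lone remaining library is assumed to vary like the others. It rose to 1122 without T3 and to 1121 without T4. In replicates 3 and 4 the count was 553 without T1, 547 without T2, 835 without T3, 555 without M1, 554 without M2, 562 without M3 and 483 without M4. Fitted alone, with no other libraries to estimate the spread, replicates 1 and 2 gave 3175 genes and replicates 3 and 4 gave 85.

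The difference between the pairs was then tested directly, as the mets minus tumor log2 difference in replicates 1 and 2 less that in replicates 3 and 4. This difference was positive for 1379 genes (11% of all genes tested) and negative for 1158 (9.20%), 2537 in all (20.2%), and the same shift gave 1234 positive and 1314 negative. For 2534 of them (99.9%) the line difference had opposite signs in the pairs, against 9681 of all 12585 genes. Their choice by a difference between the pairs favors opposite signs. The median size of the line difference over the 2537 genes was 0.51 on the log2 scale in replicates 1 and 2 and 0.58 in replicates 3 and 4, and it was larger in replicates 3 and 4 for 1682 of them. At least 1 log2 unit in each direction was reached by 310 genes, 296 of them protein-coding. Of these 310, 147 were higher in mets in replicates 1 and 2 and 163 were lower. With the replicate block 5672 genes were called (45.1%), among them all 2537. The count was 1109 without T1, 1144 without T2, 1089 without M1 and 1052 without M2. Of the 148 named genes called in this test, 111 kept their call with each library left out in turn, and the other 37 lost it in at least 1 such fit.

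**Figure D2:**
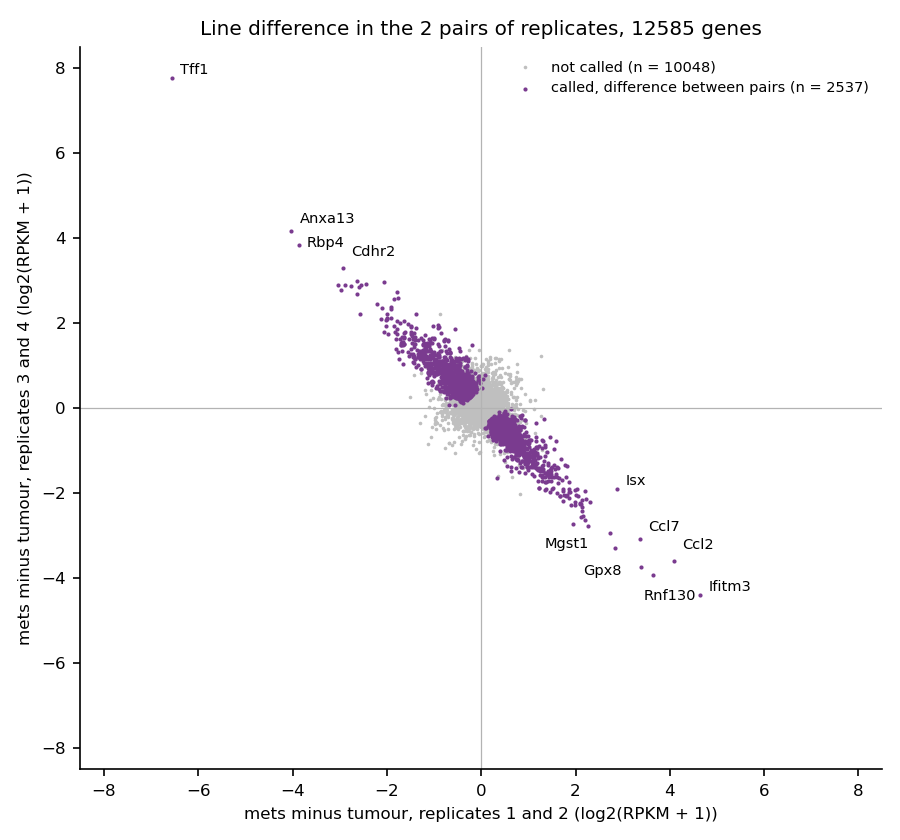
Mets minus tumor log2 difference in replicates 1 and 2 (x axis) against that in replicates 3 and 4 (y axis) for 12585 genes, with the 2537 genes called for a difference between the pairs in purple and the other 10048 in grey. Called genes lie along the falling diagonal, from Tff1 at −6.56 and 7.76 to Ifitm3 at 4.65 and −4.41. Their choice by a difference between the pairs favors this.

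The genes that were higher in mets in replicates 1 and 2 and lower in replicates 3 and 4 were led by membrane, redox and chemoattractant genes. Ifitm3 (chromosome 7, 141009586 to 141010770, GRCm38), an interferon-inducible membrane protein that restricts virus entry, was at 2.92 and 3.63 RPKM in T1 and T2, at 96.7 and 116 RPKM in M1 and M2, at 137 and 118 RPKM in T3 and T4, and at 6.27 and 4.05 RPKM in M3 and M4. Every high value lay far above every low one, and each line held both. The choice of Ifitm3 and the genes below by large opposite differences in the pairs favors this. In bulk RNA such as this, fewer cells with a gene on and less of its RNA per cell cannot be told apart. The line difference was 4.65 and −4.41 log2 units, and the difference between the pairs was 9.05 (SE 0.29, adjusted p = 3.3e-05). Gpx8 (chromosome 13, 113042753 to 113046410), a peroxidase of the endoplasmic reticulum, was at 2.4 and 2.35 RPKM in T1 and T2, 34 and 35.2 in M1 and M2, 45.8 and 46.9 in T3 and T4, and 2.7 and 2.38 in M3 and M4. Its libraries of a kind differed little, and it had the smallest adjusted p among the named genes (5.88e-06 for 7.14, SE 0.13). Rnf130, a RING-type ubiquitin ligase, was at 0.981 to 1.16 RPKM in T1, T2, M3 and M4 and at 24.1 to 34.8 RPKM in the other 4 libraries. Mgst1, a microsomal glutathione transferase, was at 0.944 and 0.508 RPKM in T1 and T2 and at 10.5 and 12.1 RPKM in M1 and M2, then at 27.3 and 13.3 RPKM in T3 and T4 and at 1.32 and 0.796 RPKM in M3 and M4, with no overlap within either pair.

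Chemoattractants of monocytes followed the same order. Ccl2 was at 0.226 and 0.128 RPKM in T1 and T2, at 18.9 and 19.1 RPKM in M1 and M2, at 6.43 and 23.7 RPKM in T3 and T4, and at 0.0584 and 0.162 RPKM in M3 and M4 (difference between the pairs 7.7, SE 0.69, adjusted p = 0.000858). Ccl7 was listed at 0 in T1, T2 and M4 and at 0.083 RPKM in M3, against 9.15 and 9.55 RPKM in M1 and M2 and 4.72 and 12.8 RPKM in T3 and T4. T3 held less of both chemokines than T4, by a wider margin than between M1 and M2. The remaining genes of this direction were Isx, an intestinal homeobox factor that represses retinoid uptake genes, Vtcn1, a B7 family ligand that restrains T cells, the tight junction gene Cldn3, the linker histone gene Hist1h1c and Lhfpl2. Their differences between the pairs ran from 4.69 to 5.67, with adjusted p from 6.33e-05 for Cldn3 to 0.00388 for Vtcn1. Vtcn1 was at 14.4 RPKM in T3 and 4.4 RPKM in T4, so that its tumor libraries of one pair differed by more than its mets libraries of the other. Reads of Hist1h1c may be shared with other near-identical histone genes.

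The opposite direction was lower in mets in replicates 1 and 2 and higher in replicates 3 and 4. Among the named genes it was led by a gastric trefoil peptide, followed by the annexin gene Anxa13 and a carrier of retinol. Tff1 (chromosome 17, 31161395 to 31165277), which encodes a secreted peptide that protects the stomach lining and marks classical PDAC, was at 648 and 688 RPKM in T1 and T2, at 5.44 and 6.81 RPKM in M1 and M2, at 1.13 and 4.46 RPKM in T3 and T4, and at 612 and 889 RPKM in M3 and M4. This was the largest change among the named genes, with line differences of −6.56 and 7.76 and a difference between the pairs of −14.32 (SE 0.59, adjusted p = 6.33e-05). Rbp4 (chromosome 19, 38116629 to 38125281), the carrier of retinol in plasma, was at 146 and 128 RPKM in T1 and T2, 10.2 and 6.87 in M1 and M2, 11.7 and 7.99 in T3 and T4, and 167 and 140 in M3 and M4. Ttr, which carries thyroid hormone and binds RBP4, was at 4.58 to 9.48 RPKM in T1, T2, M3 and M4 and at 0.203 to 0.504 RPKM in the rest. Aldh1a1, which makes retinoic acid, ran from 22.7 to 31.7 RPKM in those 4 libraries and from 2.63 to 3.6 RPKM in the others, and its reads may be shared with the near-identical Aldh1a7. Dio3, an imprinted gene whose enzyme inactivates thyroid hormone, was at 7.51 to 10.7 RPKM against 0.425 to 1.05 RPKM. The differences between the pairs of Ttr and Dio3, −5.04 and −5.3, were smaller in size than those of the genes in the next paragraph. For all of these genes the 2 levels did not overlap, and each line showed both, as their choice by large opposite differences favors.

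Surface and matrix genes stood beside them. Anxa13, an annexin of intestinal and kidney epithelium, was at 186 and 187 RPKM in T1 and T2, at 11.6 and 9.48 RPKM in M1 and M2, at 7.4 and 11.2 RPKM in T3 and T4, and at 174 and 186 RPKM in M3 and M4 (difference between the pairs −8.19, SE 0.27, adjusted p = 3.3e-05). Acan, the cartilage proteoglycan aggrecan, was at 67.6 and 71.1 RPKM in T1 and T2, 8.05 and 9 in M1 and M2, 7.57 and 9.37 in T3 and T4, and 69.3 and 69.9 in M3 and M4. The high and the low level of Acan recurred closely in the other line. Cdhr2, a protocadherin of the brush border, Clic6 of the chloride channel family, the matrix glycoprotein gene Thbs4, the GPI-anchored Ly6k, the RNase P subunit gene Rpp25 and Prl2c3, one of several near-identical placental prolactin genes, had differences between the pairs of −6.23 to −5.37, with adjusted p of 3.06e-05 to 0.000284.

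**Figure D3:**
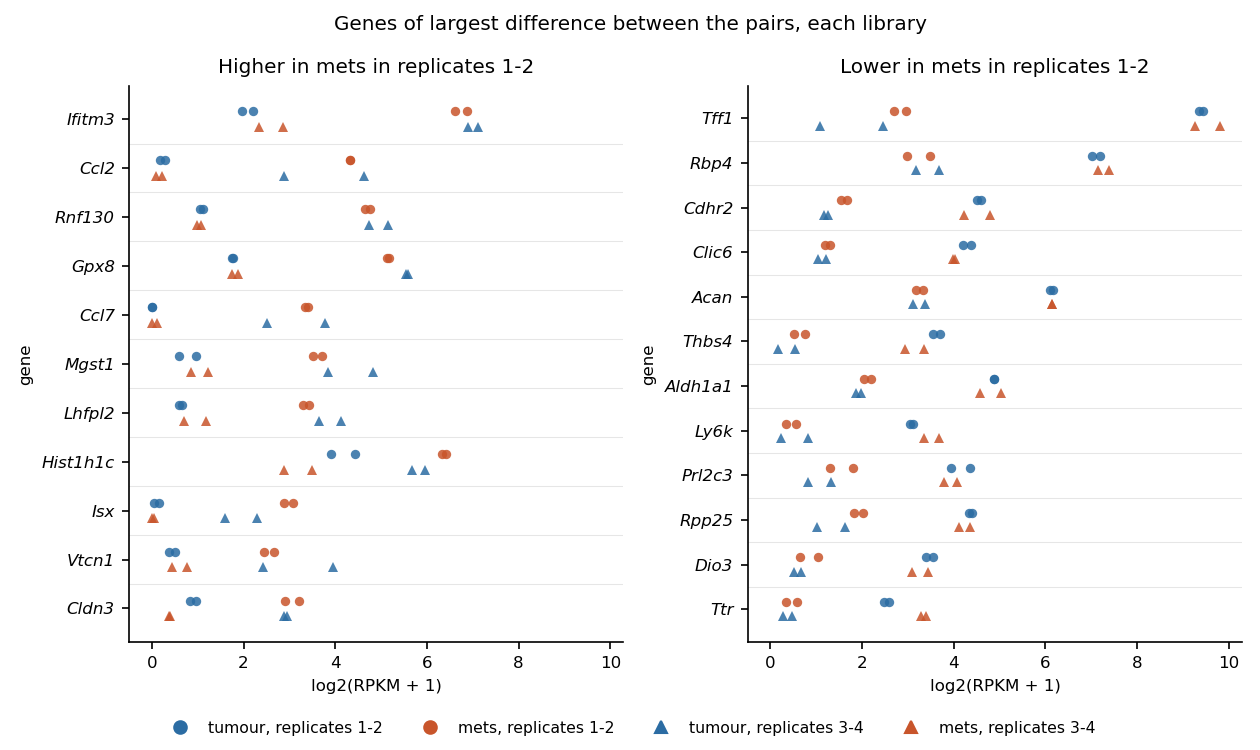
log2(RPKM + 1) of the protein-coding genes with the largest differences between the pairs, in each direction, with 1 point per library (blue for tumor, red for mets, circles for replicates 1 and 2, triangles for replicates 3 and 4). In each gene the tumor circles sit with the mets triangles and the mets circles with the tumor triangles, as the choice of these genes by large opposite differences favors.

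The transcription factors and other genes that the study followed differed from each other, and having been chosen by the study they are not independent evidence of a direction. Foxa1 was at 14.8 and 13.9 RPKM in T1 and T2, 14.7 and 12.2 in M1 and M2, 9.84 and 10 in T3 and T4, and 12.4 and 13.6 in M3 and M4. Its line difference was −0.09 in replicates 1 and 2 (adjusted p = 0.722) and 0.36 in replicates 3 and 4 (adjusted p = 0.115), and with the replicate block the latter was called (adjusted p = 0.0178), as was the difference between the pairs of −0.45 (adjusted p = 0.112, with the block 0.0184). Foxa2, Gata5 and Gata6 were called, with differences between the pairs of −1.18 (adjusted p = 0.00237), −1.72 (0.00419) and −1.74 (0.00365). Gata6, which is widely used to mark the classical state, was at 15.1 and 12.9 RPKM in T1 and T2 and at 8.04 and 6.35 RPKM in M1 and M2, then at 6.83 and 5.27 RPKM in T3 and T4 and at 11.4 and 12.1 RPKM in M3 and M4. Its levels did not overlap within either pair. Hnf4a was at 78.3 to 80.4 RPKM in T1 and T2 and at 50.4 to 50.6 RPKM in M1 and M2, and at 32.8 and 46.3 RPKM in T3 and T4 and at 60.7 and 65.9 RPKM in M3 and M4. Its difference between the pairs was −1.33 (SE 0.23, adjusted p = 0.01), a call that was lost without T1 or without M2. Prmt1, Myc, Trib1 and Pvt1 did not pass (adjusted p from 0.254 to 0.955), although with the block Myc (adjusted p = 0.00443) and Trib1 (0.0378) were called. Hnf4g, at 0.42 to 1.26 RPKM, was below the level tested.

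The wider gene lists are given by their counts in the test of the difference between the pairs, beside the share of all genes tested that was called (11% positive and 9.20% negative), and a list whose share is near these values shows nothing particular. Of 30 classical PDAC genes, among them Gata6, Foxa2 and Hnf4a from above, 20 could be tested, 12 were negative, that is, lower in mets in replicates 1 and 2 and higher in replicates 3 and 4, and none was positive. The count was 8 to 14 with 1 library left out in turn. Their median line difference was −0.6 in replicates 1 and 2 and 0.64 in replicates 3 and 4, against 0.02 and 0.01 over all genes. Lgals4, an intestinal galectin, was at 428 and 470 RPKM in T1 and T2, 164 and 176 in M1 and M2, 52.1 and 141 in T3 and T4, and 360 and 450 in M3 and M4. Foxa3 and Tff2 were also negative, at −2.73 and −2.79, the latter lost without T1. The 49 mucin and mucosal secretory genes, which share Tff1 and Tff2 with the classical list, had 16 members tested, 8 negative and 1 positive (with the block 11 and 3), and medians of −0.59 and 0.56. Muc1, a transmembrane mucin, was at 133 and 148 RPKM in T1 and T2, 39.6 and 44.4 in M1 and M2, 34.5 and 34.6 in T3 and T4, and 145 and 139 in M3 and M4 (−3.72, SE 0.16, adjusted p = 6.33e-05). Gkn1, a gastric mucosal peptide, and Gcnt3, which branches mucin glycans, had values of −3.39 and −2.1.

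The squamous genes did not run against the classical ones. Of 30 basal-like PDAC genes 12 were tested, 7 were negative and none positive (4 to 8 called with 1 library left out, lowest without T2 or M1), with medians of −0.56 and 0.62. Ivl, a precursor of the cornified envelope, was at 16.9 and 18.1 RPKM in T1 and T2, at 4.12 and 5.5 RPKM in M1 and M2, at 6.21 and 4.69 RPKM in T3 and T4, and at 21.2 and 10.9 RPKM in M3 and M4. Sfn, which encodes 14-3-3 sigma, and the basal keratin Krt14 had differences between the pairs of −2.89 (adjusted p = 0.00271) and −2.7 (0.00568). Sprr1a and Serpinb5 were called at −1.77 and −1.85, and each lost the call without T2, Sprr1a also without T1, M1 or M2.

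Mesenchymal genes ran the other way. Among 34 such genes 18 were tested, of which 12 were positive and 2 negative (8 to 13 called with 1 library left out, lowest without T1, T2, M1 or M2), with medians of 0.5 and −0.91. S100a4, a calcium-binding protein of motile cells, was at 191 and 192 RPKM in T1 and T2, 620 and 635 in M1 and M2, 555 and 732 in T3 and T4, and 193 and 200 in M3 and M4 (3.4, SE 0.21, adjusted p = 0.000247). Twist1, a factor that drives epithelial to mesenchymal transition, was at 2.51 to 3.31 RPKM in T1 and T2 and at 7.21 to 7.63 RPKM in M1 and M2, against 6.86 to 7.46 RPKM in T3 and T4 and 2.12 to 2.16 RPKM in M3 and M4. Gas6, a ligand of the AXL receptor, and Ncam1 were positive at 4.38 and 2.38. Vim, the intermediate filament of mesenchymal cells, was between 527 and 790 RPKM in all 8 libraries and was not called (−0.4, SE 0.19, adjusted p = 0.179), and Zeb1 was between 5.62 and 7.93 RPKM. Fn1, at 96.1 and 89 RPKM in T1 and T2, 210 and 229 in M1 and M2, 820 and 243 in T3 and T4, and 192 and 76.3 in M3 and M4, varied as much within replicates 3 and 4 of a line as between lines, and its call (adjusted p = 0.0471) was lost in 6 of the 8 fits that left out a library, those without T1, T2, T3, M1, M2 or M4.

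Epithelial junction and keratin genes were divided. Of 37 such genes 27 were tested, with 6 positive and 10 negative. Cdh1, which encodes E-cadherin, was at 263 and 277 RPKM in T1 and T2, 148 and 158 in M1 and M2, 199 and 163 in T3 and T4, and 332 and 298 in M3 and M4 (−1.62, SE 0.19, adjusted p = 0.00271), so it stayed high in all libraries. Ehf, an epithelial ETS factor, went the other way, at 4.96 and 4.82 RPKM in T1 and T2, 26.2 and 30.4 in M1 and M2, 24.2 and 25.8 in T3 and T4, and 4.77 and 4.51 in M3 and M4 (4.51, SE 0.15, adjusted p = 3.87e-05). Epcam was positive at 2.13 with Ehf and Cldn3, whereas Cldn7, Esrp2, a splicing factor of epithelial cells, and the membrane protease gene Prss8 were negative at −2.67, −2.58 and −2.5. Gut and pancreas identity factors were likewise mixed, with 7 positive and 12 negative of 32 tested (57 in the list), and 11 called without T1 or without M2. Sox9, a ductal progenitor factor, was positive at 1.58 (adjusted p = 0.0275), and Pdx1, the pancreatic master factor, was negative at −0.98 (adjusted p = 0.0461). Cftr, the ductal chloride channel, was at 0.827 and 0.954 RPKM in T1 and T2, 5.39 and 5.96 in M1 and M2, 4.98 and 6.2 in T3 and T4, and 1.63 and 1.46 in M3 and M4 (3.19, SE 0.19, adjusted p = 0.00022). Cdh1, Vim, Zeb1, Epcam, Sox9, Pdx1 and Cftr were singled out after their values were seen. None of the 39 clustered homeobox genes reached the level tested.

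Matrix and protease lists held calls in both directions. Collagen and matrix genes had 7 positive and 3 negative of 24 tested (42 in the list), with medians near 0 (−0.02 and −0.04), and 3 to 12 called with 1 library left out, lowest without M2. Vcan, the proteoglycan versican, was at 4.59 and 5.44 RPKM in T1 and T2, 13.8 and 17.6 in M1 and M2, 32 and 21.7 in T3 and T4, and 7.1 and 5 in M3 and M4 (3.44, SE 0.33, adjusted p = 0.00114). Col6a2 was negative at −1.99. Laminins and integrins had 4 positive and 3 negative of 17 tested (30 in the list; with the block 9 and 4, and 3 called without T2, M1 or M2), among them Itga5, the fibronectin receptor subunit, at 2.05, and Itga1, a collagen receptor subunit, at −1.73. Extracellular proteases and their inhibitors had 4 positive and 2 negative of 22 tested (41 in the list; with the block 11 and 2, and 3 called without T2, M1 or M2), among them Mmp28 at 2.26, the cathepsin gene Ctsh at 1.62 and the inhibitor gene Timp3 at −1.78. Adhesion genes had 5 positive and 6 negative of 23 tested (53 in the list). Cdh3, which encodes P-cadherin, was at 7.27 and 7.56 RPKM in T1 and T2, 0.473 and 0.35 in M1 and M2, 0.812 and 0.328 in T3 and T4, and 6.15 and 6.32 in M3 and M4 (−4.8, SE 0.24, adjusted p = 0.000119). Vcam1, an adhesion molecule for leukocytes, was positive at 2.89, from 6.05 to 8.71 RPKM in its low libraries and from 20.3 to 24.3 RPKM in its high ones. S100 and annexin genes, the list of Anxa13 and S100a4, had 2 positive and 5 negative of 22 tested (26 in the list; with the block 7 and 7, and 3 called without T1, T2, M1 or M2).

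Among secreted signals, the Wnt and the TGF-beta and BMP lists held more positive than negative calls. Without the block, 12 of the 22 members tested in each list were not called. The 50 Wnt pathway genes had 22 members tested, 9 of them positive and 1 negative (7 to 11 called with 1 library left out; with the block 11 and 4), with medians of 0.19 and −0.26. Axin2, a feedback target of the canonical pathway, was at 0.77 and 0.943 RPKM in T1 and T2, 4.12 and 5.18 in M1 and M2, 4.72 and 4.57 in T3 and T4, and 0.64 and 1.06 in M3 and M4 (3.22, SE 0.23, adjusted p = 0.0004). Lgr5, the R-spondin receptor of intestinal stem cells, was at 0.252 to 0.7 RPKM in its 4 low libraries and at 3.37 to 4.86 RPKM in its 4 high ones. The receptors Fzd6 and Fzd1 and the ligand Wnt10a were positive at 3.42, 2.43 and 1.93. TGF-beta and BMP genes had 8 positive and 2 negative of 22 tested (37 in the list; with the block 12 and 4). Inhba, an activin subunit, was at 3.59 and 4.01 RPKM in T1 and T2, 15.3 and 17.7 in M1 and M2, 26.3 and 21 in T3 and T4, and 5.92 and 3.64 in M3 and M4, and its antagonist Fst, follistatin, moved with it (3.98 and 3.29). The ligand Bmp4 and the target Id3 were positive at 2.77 and 2.58, and the ligand Bmp8b was negative at −4.13, from 4.59 to 5.89 RPKM down to 0.273 to 0.732 RPKM.

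Other receptor systems gave counts in both directions. Notch pathway genes had 5 positive and 3 negative of 13 tested (23 in the list), and 5 were called without T1, T2, M1, M2 or M4. The receptor Notch1 was at 5.13 to 6.24 RPKM in T1, T2, M3 and M4 and at 1.87 to 2.37 RPKM in the others (−2.15, SE 0.19, adjusted p = 0.000807), whereas Lfng, a glycosyltransferase that modifies Notch, and the ligand Dll1 were positive at 3.11 and 2.25 and the ligand Jag2 was negative at −1.39. Epidermal growth factor ligands and ERBB receptors had 1 positive and 4 negative of 10 tested (16 in the list; 3 called without T1, M1 or M2), among them the ligand genes Areg at −1.39 and Nrg2 at −2.01, with Areg at 66.7 to 77.4 RPKM against 39.5 to 47.4 RPKM. Other growth factor ligands and receptors had 11 positive and 8 negative of 30 tested (52 in the list). Nrp2 and Nrp1, the semaphorin and VEGF co-receptors, were positive at 2.93 and 2.68, and Igfbp4, a binding protein of insulin-like growth factors, was negative at −2.76. Axon guidance genes, which share the neuropilins, had 11 positive and 8 negative of 36 tested (62 in the list; with the block 17 and 12), and 7 were called without T1 or without M2.

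Chemokine and cytokine genes had 8 positive and 4 negative of 21 tested (42 in the list). Csf1, the growth factor of macrophages, was at 5.66 and 6.1 RPKM in T1 and T2, 23.7 and 24.6 in M1 and M2, 20.6 and 24.9 in T3 and T4, and 5.52 and 6.64 in M3 and M4 (3.61, SE 0.19, adjusted p = 0.000132). Il34, the other ligand of the CSF1 receptor, and Cxcl16 were positive at 2.98 and 2.18. Csf1 and Il34 together with Ccl2 and Ccl7 are all ligands of monocytes and macrophages. The members named from this list were those of largest difference, and the 4 negative ones, with smaller differences, are not named. Interferon response genes had 2 positive and none negative of 12 tested (38 in the list; with the block 3 and 1), Gbp2 at 2.99 and Ddx58 at 1.17, and reads of Gbp2 may be shared with other members of its family. Antigen presentation genes had 2 positive and 1 negative of 11 tested (22 in the list; with the block 5 and 4), and 2 were called without T1, T2, M1, M2 or M4. H2-K1, a class I heavy chain that has near-identical relatives, was at 53.3 to 72.5 RPKM against 20.7 to 33.7 RPKM and negative at −2.32, while B2m, its light chain, was positive at 2.12 and lost its call without T1, T2, M1, M2 or M4.

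In metabolism, sterol synthesis genes were mostly negative. All 25 genes of cholesterol synthesis were tested, and 13 were negative and 1 positive, with medians of −0.36 and 0.35. The count fell from 14 to 5 without M2. Msmo1, a sterol methyl oxidase, was at 37 and 42.3 RPKM in T1 and T2, 22.9 and 21.4 in M1 and M2, 25.2 and 26.5 in T3 and T4, and 47.4 and 41.8 in M3 and M4 (−1.57, SE 0.16, adjusted p = 0.00165). Tm7sf2, a sterol reductase, was negative at −2.15, and Mvd and Acat2 at −1.53 and −1.37. Fatty acid and lipid genes had 7 negative and 2 positive of 28 tested (34 in the list; with the block 14 and 4), and 4 were called without T1 or without M2. The desaturase gene Fads2 was at 97.4 to 107 RPKM in T1, T2, M3 and M4 and at 39.4 to 49.8 RPKM in the others, and Fads1 at 49 to 57 RPKM against 27.7 to 32.2 RPKM. Scd1, another desaturase gene, was called at −1.42 (adjusted p = 0.0427) and lost the call without any 1 library except M3 or M4.

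Detoxifying genes held more negative than positive calls. Without the block, 14 of the drug and xenobiotic genes tested and 16 of the NRF2 targets tested were not called. Drug and xenobiotic metabolism genes had 12 negative and 4 positive of 30 tested (49 in the list; with the block 16 and 8), with medians of −0.33 and 0.45. Cyp2s1, a cytochrome P450 of epithelia, was at 12.3 and 12.6 RPKM in T1 and T2, 2.78 and 2.32 in M1 and M2, 2.09 and 2.23 in T3 and T4, and 14.7 and 14.9 in M3 and M4 (−4.24, SE 0.15, adjusted p = 3.93e-05). The efflux pump gene Abcg2 ran the other way at 3.03. Ugt1a7c, whose exons are largely shared with its neighbors, and Aldh3a1 were negative at −2.95 and −2.91. NRF2 targets had 9 negative and 1 positive of 26 tested (32 in the list; with the block 16 and 5), and the number called fell from 10 to 3 without T1, without M1 or without M2. Cbr3 and Ugdh were negative at −2.66 and −1.68, and the glutathione transferase genes Gsta4 and Gsta1, which have near-identical relatives, at −2.18 and −4.41, with Gsta1 at 0.188 RPKM in T3 against 4.61 RPKM in T4.

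Energy and stress lists had few calls without the block and more with it. Glycolysis and hypoxia genes had 2 positive of 33 tested (36 in the list; with the block 4 and 7), and none was called without T1, T2, M1 or M2. Oxidative phosphorylation genes had 2 in each direction of 35 (with the block 6 and 13), and again none was called without T1, T2, M1 or M2 but 7 were without T4. None of the 40 cell cycle genes was called (with the block 7 positive and 8 negative; 3 called without T3 and 1 without T4), nor of the 12 mitochondrially encoded genes tested (with the block 6 negative; 4 called without M3 and 1 without T4). ATF4 and one-carbon genes had 2 positive and 1 negative of 26 (with the block 10 and 7; 1 to 7 called with 1 library left out, lowest without T2, M1, M2 or M4). Targets of p53 had 4 and 1 of 24 (26 in the list; with the block 10 and 2; 3 called without T1, M1 or M2), and RAS-MAPK feedback genes 5 and 1 of 31 (34 in the list; with the block 8 and 11; 1 called without M1 or without M2). Imprinted genes had 2 and 4 of 14 (38 in the list). Of the 16 KPC drivers and suppressors none was called (with the block 4 and 2). The mitochondrially encoded genes, though not called, had median line differences of −0.13 in replicates 1 and 2 and 0.62 in replicates 3 and 4. Rasa1, a GTPase-activating protein of RAS, was the clearest of the RAS-MAPK genes, at 6.49 to 7.24 RPKM in T1, T2, M3 and M4 and at 11.9 to 14 RPKM in the others (1.66, SE 0.14, adjusted p = 0.000772). Of hepatocyte markers the summed level was 94.5 and 107 RPKM in T1 and T2, 60.5 and 59.6 in M1 and M2, 57.3 and 56.9 in T3 and T4, and 144 and 104 in M3 and M4. It was carried by Apob (−1.66, SE 0.25, adjusted p = 0.00612), which enterocytes also make, and by Ttr, with Alb at 0.

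**Figure D4:**
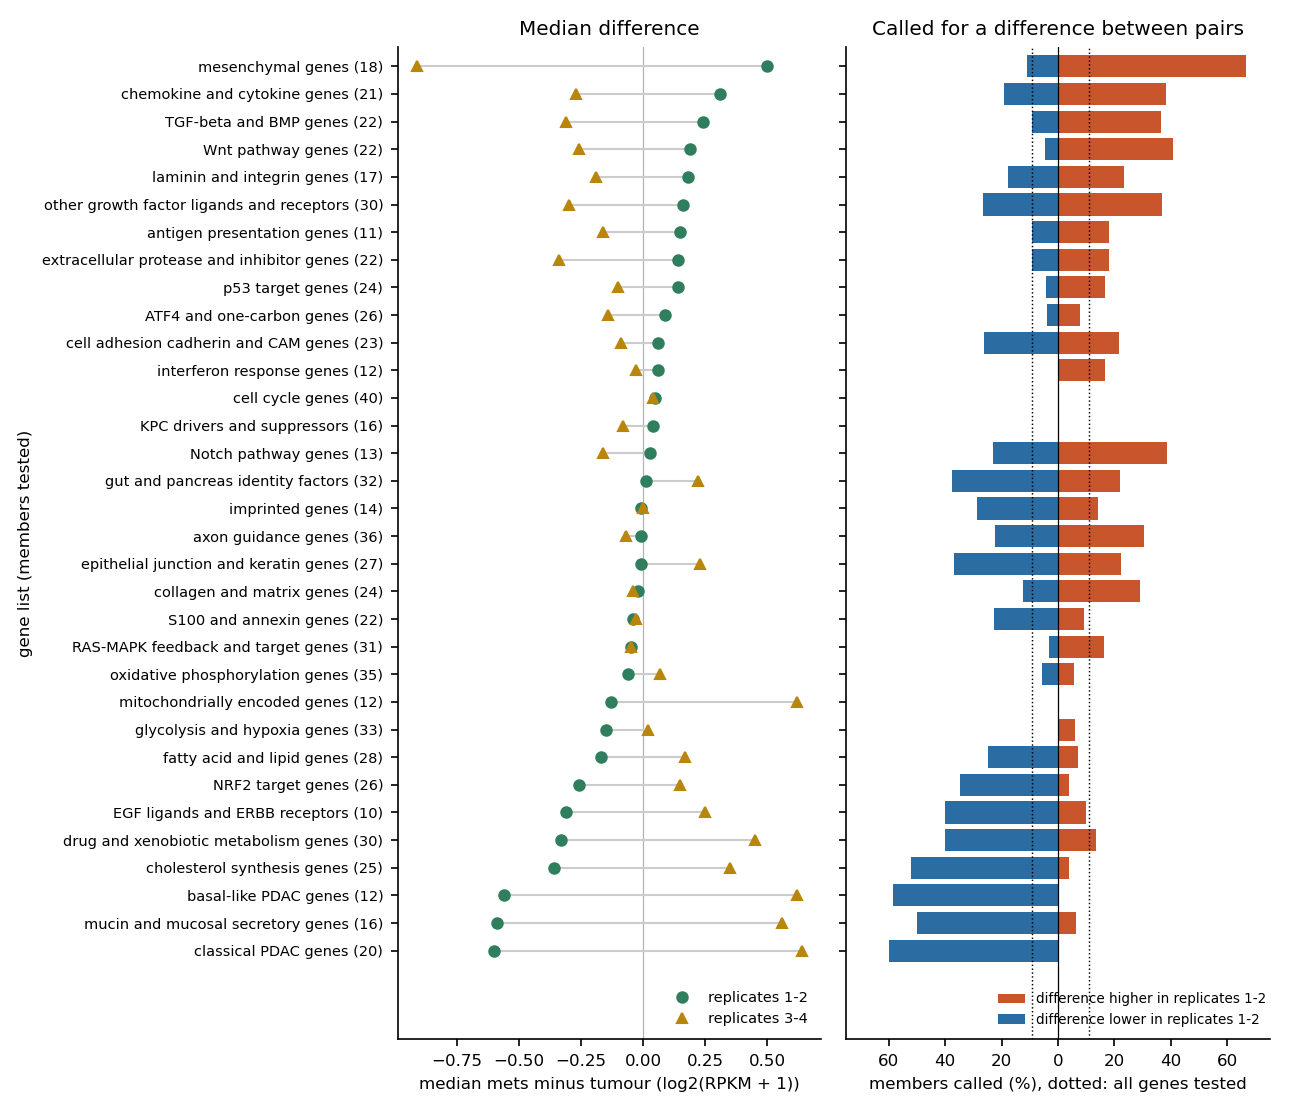
Left, median mets minus tumor log2 difference of each gene list in replicates 1 and 2 (green circles) and in replicates 3 and 4 (gold triangles). Right, percent of tested members called higher (red) or lower (blue) in the difference between the pairs, with dotted lines at 11% and 9.20% for all genes. The medians of the classical list lie at −0.6 and 0.64 and those of the mesenchymal list at 0.5 and −0.91, on opposite sides of 0.

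The called genes were not spread evenly over the genome. On chromosome 13, 57.6% of the 488 genes tested were called, 267 positive and 14 negative, and the median line difference was 0.48 in replicates 1 and 2 and −0.48 in replicates 3 and 4. Chromosome 18 had 36.2% of its genes called, with medians of −0.24 and 0.24, chromosome 1 had 31.3%, with 0.25 and −0.21, and chromosome 8 had 30%, with −0.22 and 0.26. All 6 windows of 20 megabases on chromosome 13 had a positive median in replicates 1 and 2 (0.37 to 0.58) and a negative one in replicates 3 and 4 (−0.56 to −0.41). Of the named genes on chromosome 13, Gpx8, Lhfpl2, Hist1h1c, Vcan, Inhba, Fst and Rasa1 were positive, whereas Cdhr2 (−6.23), Thbs4 (−5.77), Prl2c3 (−5.46) and Itga1 (−1.73) ran against the chromosome's median. Copy number was not measured, and its part in these values was not tested.

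A smaller set of genes separated replicates 1 and 2 from replicates 3 and 4 in both lines alike. Averaged over the lines, 11 genes passed the test (0.0874% of all genes tested), all lower in replicates 3 and 4, and several are immediate early genes that serum and growth factor signals induce within minutes. Egr1 (chromosome 18, 34859823 to 34864984), a zinc finger factor of this kind, was at 209 and 194 RPKM in T1 and T2 and at 224 and 154 RPKM in M1 and M2, against 4.66 and 3.05 RPKM in T3 and T4 and 3.9 and 2.78 RPKM in M3 and M4 (−5.42, SE 0.17, adjusted p = 0.000179). Fos, a subunit of AP-1, was at 79.8 to 211 RPKM in the first 2 replicates of the lines and at 2.23 to 3.46 RPKM in the last 2 (−5.19, adjusted p = 0.003). Neither gene separated the lines in either pair. Ccn1, a matricellular target of YAP and serum, fell by 2.87 on the log2 scale (adjusted p = 0.00525), and Zfp36, which destabilizes messenger RNA, fell by 2.82 (0.00321). The other 7, singled out once their values were known, were Ier2, Nr4a1, Btg2, Hes1, Egr3, Rnf39 and Gm10382, with differences of −2.62 to −0.73. The number of genes called was 5 without T1, 6 without T2 and 6 without M3. In the RAS-MAPK list, which holds several of these genes, 4 members were lower and the median difference between replicates 3 and 4 and replicates 1 and 2 was −0.48, against −0.03 over all genes.

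Replicate 3 also differed from replicate 4 in both lines. In the fit of all libraries without the block, this enters the spread that comparisons within and between both pairs share. All 40 cell cycle genes were lower in replicate 3 than in replicate 4 in both lines, with median log2 differences of −1.36 in tumor and −0.98 in mets, against −0.05 and −0.07 over all genes. Mki67, a marker of dividing cells, was at 25.2 and 75.3 RPKM in T3 and T4 and at 31 and 58.2 RPKM in M3 and M4, with 49.3 to 60.7 RPKM in the libraries of replicates 1 and 2. Top2a, a topoisomerase of dividing cells, was at 28.6 and 38.4 RPKM in T3 and M3 and at 75.2 to 84.3 RPKM in the other 6 libraries. Of the 26 ATF4 and one-carbon genes, which amino acid shortage induces, 21 were higher in replicate 3 in both lines (medians 0.68 and 0.55), and of the 35 oxidative phosphorylation genes 33 were lower (medians −0.29 and −0.35). These contrasts were not tested here, and both lines showed them.

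**Figure D5:**
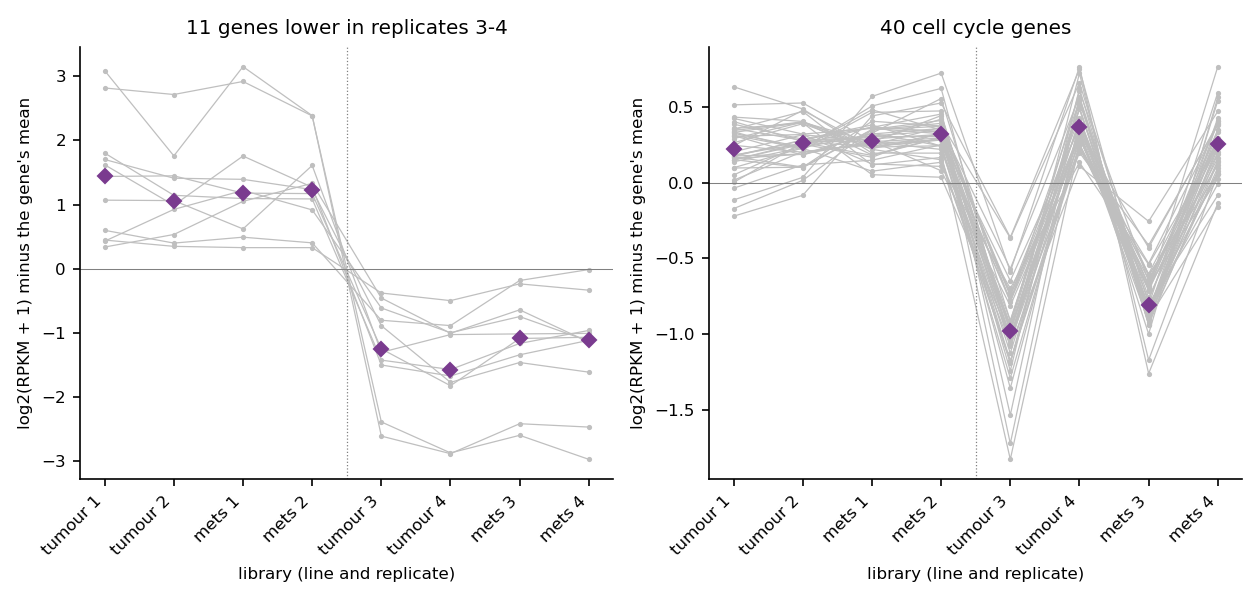
log2(RPKM + 1) less each gene's mean over the 8 libraries, by library, for the 11 genes that were lower in replicates 3 and 4 (left) and for the 40 cell cycle genes (right), with diamonds at the medians. The 11 genes step down from replicates 1 and 2 to replicates 3 and 4 in both lines, and the cell cycle genes are low in T3 and M3.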

How the data were processed

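RNA of 8 KPC libraries, 4 per line, was taken from the series' RPKM table, grouped by the labels. The authors deposited RPKM values for 54446 gene IDs, of which 54409 were found in GENCODE M21 (GRCm38) ignoring the version. The submitters' processing notes name STAR 2.6.1a, featureCounts 2.0.4 and DESeq2, and the study's methods give single-end reads of 50 bases and a stranded library kit. The strand setting of the counting is not given in the sources used here, so reads of overlapping antisense genes may be mixed. The table's other 12 columns of values belong to no sample listed here and were not used.

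The values were tested as log2(RPKM + 1) with limma 3.58.1 in R 4.3.3 (two-sided, empirical Bayes with a trend, Benjamini-Hochberg adjustment over the 12585 genes averaging 1 RPKM or more, threshold 0.05). One fit gave each line and replicate pair its own mean (4 residual degrees of freedom), from which came the line difference in each pair, the difference between the pairs and the pair difference averaged over lines. A fit of 2 means (6 degrees) compared 4 libraries against 4. Whole reads were recovered from the RPKM steps in 95.16% of the genes tested (11976 genes, tolerance 0.05 reads), which gave the depth and a limma-voom alternative. Scripts were tested on simulated data. Within the pairs the replicate numbers paired the libraries: deviations from the means of line and pair correlated at 0.345 for replicates 1 and 2 and 0.682 for replicates 3 and 4. Deviations from line means over all 4 replicates correlated at −0.412 to 0.209. They also hold the opposite line differences of the pairs, so they cannot show whether the replicate numbers pair the libraries. Results of a fit with the replicate number as a block (2 degrees) are given where they change a call or move a count by over 1.5 times.

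The members and gene lists were chosen with earlier results of these data known, so the counts describe and do not test them. Genes were named by rule: the genes the study followed, the 12 protein-coding genes with the largest difference between the pairs in each direction among those with at least 1 log2 unit in each pair (by GENCODE M21, which annotates Anxa13 as a processed transcript, so that it is named through its list), the leading genes of the pair and 4 against 4 comparisons, and up to 5 called members per list with the largest differences, plus members needed to describe a list. Other genes named are said to be chosen after their values were seen. Alternatives were a pseudocount of 0.1, no expression filter, libraries shifted to the same median, each library left out, each pair alone, the replicate block and limma-voom. Values of a few genes that these rules would name are not reported here.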

Additional observations from a re-analysis of the deposited data

Results flagged for a closer look

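The line difference itself differed between the replicate pairs, by the test of that difference, for 2537 of 12585 genes. Among 322 groups of 4 libraries of a line examined for the named genes, 3 held a library far from the others. The chance rate of about 1 in 20 assumes 4 libraries of the same level and does not apply here. Most named genes were called for a difference between the pairs, so a group often joined a high and a low replicate pair. A lone far library can hardly be flagged in such a group. The count of 3 therefore does not show how common outlying libraries were. Fn1 was low in mets replicate 4, at 76.3 RPKM against 192 to 229 RPKM in the other mets libraries. Atp5a1, which encodes a subunit of ATP synthase, was high in mets replicate 4, at 181.0 RPKM against 144 to 147 RPKM. Ms4a8a was high in tumor replicate 4, at 1.4 RPKM against 0.93 to 0.979 RPKM.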

How the results depend on the processing

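The line difference over all 4 replicates called 0 genes under every alternative run. In replicates 1 and 2, in place of 744 genes, 489 were called without the RPKM filter, 3383 with the replicate block, 3629 with limma-voom and the block, 3175 with the pair fitted alone and 302 with a log2 difference of at least 1, and leaving out 1 library gave 84 to 1122. In replicates 3 and 4, in place of 1269, the block gave 4349, limma-voom with the block 4474, the pair alone 85 and a log2 difference of at least 1 gave 428, and leaving out 1 library gave 483 to 1257. The difference between the pairs, called for 2537 genes, was called for 5672 with the replicate block, 5576 with limma-voom and the block and 1427 with a log2 difference of at least 1, with 635 genes called in opposite directions in both pairs and 1052 to 2888 with 1 library left out. The difference between replicate pairs averaged over lines was called for 23 genes without the filter and for 5 to 8 with 1 library left out. Of the 23 genes, 10 were higher in replicates 3 and 4 and 13 were lower, where all 11 were lower with the filter. Calls for this averaged difference were not counted in the fits with the block. A pseudocount of 0.1, a shift to equal medians and limma-voom without the block moved these counts by less than 1.5 times, although the shift to equal medians turned the balance of directions to 322 higher and 418 lower in replicates 1 and 2 and to 1234 positive and 1314 negative in the difference between the pairs. The cause of the larger moves was not tested, other than that fewer libraries or fewer genes enter some fits. No named gene changed direction where it was called. Over the values of named genes, 5818 kept their side of the threshold, 306 passed it newly and 882 no longer passed. Of the counts of list members, 352 stayed within 1.5 times and 124 did not.

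The 2 libraries per line and pair leave 4 residual degrees of freedom, and an exact test of 2 against 2 cannot go below 0.333. Low genes rest on few reads, and their log2 differences are understated by the pseudocount of 1.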

Other observations

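Some gut and epithelial factors did not separate the lines in opposite directions past the threshold. Cdx2, an intestinal homeobox factor, was between 8.4 and 18.9 RPKM, Klf5, a factor of proliferating epithelium, between 31 and 37.4 RPKM, and Onecut3 between 7.18 and 11.3 RPKM, and none of them passed the test of the difference between the pairs (adjusted p = 0.842, 0.855 and 0.0782 in limma). Sox2, a factor of foregut and stem cells, lay below the mean level tested and was listed at 0 in T1, T2, M3 and M4, at 1.48 and 2.18 RPKM in M1 and M2 and at 2.01 and 1.96 RPKM in T3 and T4. Trib3, an ATF4 target, followed both the pairs and the replicate number, at 4.39 and 4.62 RPKM in T1 and T2, 12.8 and 13.8 RPKM in M1 and M2, 34.7 and 12.2 RPKM in T3 and T4, and 17.2 and 5.22 RPKM in M3 and M4 (difference between the pairs 2.4, SE 0.83, adjusted p = 0.088). Genes that changed by at least 1 log2 unit between replicates 3 and 4 did so in the same direction in both lines for 121 genes lower and 30 higher in replicate 3, and in opposite directions for 5. These genes were singled out after their values were seen, and their contrasts between replicates 3 and 4 were not tested.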
